A study of Mus musculus with 12 samples.

Results

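A set of 9 genes of the transforming growth factor beta (TGF-beta) system was followed across 3 lines of mouse embryonic fibroblasts. They were the ligand genes Tgfb1, Tgfb2 and Tgfb3, the latent-ligand receptor gene Lrrc32, the receptor genes Tgfbr1, Tgfbr2 and Tgfbr3, the signal transducer gene Smad3 and the target gene Ccn2. The genes were picked by symbol from the deposited table of read counts, and 9 of 9 were found among its 15156 named genes. All 9 passed the filter on low counts and were tested among 14392 genes.

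The first group held 4 libraries of 1 line labelled p27 KO, and it was set against 4 libraries of the p27 WT clone2 line and 4 libraries of the p27 WT clone1 line. All 3 lines carry E6, the papillomavirus oncoprotein that directs p53 to degradation and was used to immortalise them, and all grew for 24 h in DMEM with 10% fetal bovine serum. The gene behind the label is Cdkn1b, whose product p27 inhibits cyclin-dependent kinases. Because the KO label rests on 1 line, genotype and line cannot be told apart. Each line was sampled in 4 numbered experiments that the labels do not describe as separate cultures, and the p-values therefore cover only the spread among these 12 samples, whose source may be technical.

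TGF-beta ligands are secreted in a latent complex with their own propeptide, and the complex is held in the matrix or on a cell surface protein until it is activated. The active ligand binds the type II receptor encoded by Tgfbr2, which recruits and phosphorylates the type I receptor encoded by Tgfbr1. SMAD2 and SMAD3 then enter the nucleus with SMAD4. In fibroblasts the pathway is known for inducing extracellular matrix and contractile genes.

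Upstream sequences are shown for Lrrc32, Tgfb2 and Tgfb1, members whose line means spanned 1.59, 1.44 and 1.46 on the log2 CPM scale. Each is the 250 bases before the start of the canonical transcript in GENCODE vM39, read from GRCm39 in the direction of the gene, 5′ to 3′. Capitals mark matches, on either strand, to 5 motifs: CAGACA (a SMAD element), GGAATG (a TEAD element), TGANTCA (an AP-1 element), TGACGTCA (a cAMP response element) and GGGCGG (a GC box).
Lrrc32 (chr7:98138654-98138903, plus strand): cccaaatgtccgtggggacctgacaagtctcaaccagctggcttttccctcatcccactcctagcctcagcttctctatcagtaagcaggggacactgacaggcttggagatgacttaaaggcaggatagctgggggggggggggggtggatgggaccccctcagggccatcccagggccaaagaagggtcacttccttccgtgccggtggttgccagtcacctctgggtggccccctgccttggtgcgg
Tgfb2 (chr1:186438295-186438544, minus strand): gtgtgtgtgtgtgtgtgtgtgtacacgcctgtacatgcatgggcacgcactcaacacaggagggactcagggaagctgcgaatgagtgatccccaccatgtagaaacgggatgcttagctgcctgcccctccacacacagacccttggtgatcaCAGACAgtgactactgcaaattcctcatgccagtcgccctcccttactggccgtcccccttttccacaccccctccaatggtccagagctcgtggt
Tgfb1 (chr7:25386140-25386389, plus strand): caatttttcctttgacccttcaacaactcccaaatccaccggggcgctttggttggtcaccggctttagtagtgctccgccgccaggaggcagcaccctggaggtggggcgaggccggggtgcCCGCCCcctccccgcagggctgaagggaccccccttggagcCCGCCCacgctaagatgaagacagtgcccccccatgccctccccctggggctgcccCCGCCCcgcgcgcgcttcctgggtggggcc
The Tgfb1 window held the GC box at 3 places, starting 127, 86 and 30 bases before the transcript start, a motif found in 50.5% of 12033 windows of the same length. The Tgfb2 window held CAGACA 96 bases before the start, a motif found in 13.9% of windows. None of the 5 motifs was in the Lrrc32 window, and the TEAD, AP-1 and cAMP elements, found in 11.8%, 4.51% and 2.23% of windows, were in none of the 3 windows shown. No motif matches overlapped one another in these 3 windows. In the annotation exons of Tgfb2 share 232 bases with the antisense RNA gene Gm29491. The Lrrc32 gene starts at 98138490, so its window precedes the canonical start but lies inside the annotated gene. Overlap of the windows with exons was not tested. These are letter matches only, and binding of any factor was not measured.

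Library depth, as the sum of counts over named genes, was 15.4 to 24.0 M, above the 10 M reads per sample that the labels state. Cdkn1b, the targeted gene, was at 83.7, 114, 118 and 98.2 CPM in KO-labelled libraries, at 92.7, 120.0, 92.9 and 88.6 CPM in WT clone2 and at 86.8, 89.2, 92.3 and 101 CPM in WT clone1. CPM was computed from these sums after TMM scaling. The part of the gene that was deleted is not given, so these counts do not check the label. Of 10 fibroblast markers 9 were in the table, and their summed level was 13954 to 18436 CPM in KO-labelled libraries, 16579 to 22100 CPM in WT clone2 and 10856 to 16525 CPM in WT clone1. Single fibroblast markers did not all follow the sum. Dcn was at 0.274 CPM in KO-labelled libraries, 13.8 CPM in WT clone2 and 38.3 CPM in WT clone1 (means of 4 libraries). In the same order of lines, Vim averaged 5007, 2757 and 3433 CPM and Pdgfra 88.7, 261 and 86.1 CPM. S100a4 was low in every line, at 1.23, 2.83 and 1.02 CPM. The experiment 1 libraries of the KO-labelled line and of WT clone1 stood apart from the rest of their lines. Their deviations from the line means had a Pearson correlation of 0.75 with each other over 14392 genes, given as a description of 2 libraries. The tests of the 9 genes and of the 17 pathway genes selected by rule further on were also run without both of them.

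Among the ligands, Tgfb2 was lower in the KO-labelled line than in the pooled WT libraries, while Tgfb1 and Tgfb3 did not pass that test. Tgfb2 (chromosome 1, 186354985 to 186438294, minus strand) encodes TGF-beta 2, the isoform whose binding to the signalling receptors is aided by betaglycan. It was counted at 24.7, 17.6, 25.5 and 25.2 CPM in KO-labelled libraries, at 25.3, 23.9, 36.2 and 32.2 CPM in WT clone2 and at 58.7, 62.0, 81.4 and 52.2 CPM in WT clone1. All 4 WT clone1 libraries lay above every other library, whereas KO-labelled and WT clone2 libraries overlapped. Against both WT lines pooled the log2 fold change was -1.0 ± 0.32 (SE; edgeR adjusted p = 0.0476). In bulk RNA, fewer cells expressing a gene and less of its RNA per cell cannot be told apart.

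The difference was larger relative to WT clone1, the line with the highest Tgfb2. Against that line Tgfb2 fell by 1.45 ± 0.17 (log2) in the KO-labelled line (edgeR adjusted p = 2.4e-05). Against WT clone2 the log2 fold change was -0.34 ± 0.17 with a 95% interval of -0.674 to -0.001 (edgeR adjusted p = 0.141). The pooled call was lost on leaving out any 1 of 9 of the 12 libraries, namely every KO-labelled and every WT clone1 library and WT clone2 experiment 3, with edgeR adjusted p between 0.0509 and 0.14. Without both experiment 1 libraries the edgeR adjusted p was 0.114.

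Tgfb1 (chromosome 7, 25386390 to 25404506, plus strand) encodes TGF-beta 1, the isoform most widely expressed in adult tissue. Its level was 42.8, 34.0, 40.1 and 38.3 CPM in KO-labelled libraries, 13.9, 14.8, 21.2 and 18.2 CPM in WT clone2 and 44.2, 43.8, 58.3 and 41.1 CPM in WT clone1. WT clone2 was the low line, with all 4 libraries under every library of the other lines, and the KO-labelled and WT clone1 libraries overlapped. Tgfb1 rose by 1.19 ± 0.15 (log2) in the KO-labelled line relative to WT clone2 (edgeR adjusted p = 2.9e-05). Relative to WT clone1 the log2 fold change was -0.27 ± 0.14 with a 95% interval of -0.55 to 0.01 (edgeR adjusted p = 0.16). The pooled log2 fold change of 0.28 ± 0.37 did not pass (edgeR adjusted p = 0.644).

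Tgfb3 (chromosome 12, 86102756 to 86126301, minus strand) encodes TGF-beta 3 and was the most abundant ligand transcript per length in every library. It was at 259, 151, 262 and 148 CPM in KO-labelled libraries, at 108, 81.3, 202 and 130.5 CPM in WT clone2 and at 189, 173, 282 and 146 CPM in WT clone1. The 3 lines overlapped, and no comparison among them passed the test without a block for experiment number. The log2 fold change was 0.65 ± 0.29 relative to WT clone2 (edgeR adjusted p = 0.0894) and 0.06 ± 0.28 relative to WT clone1 (edgeR adjusted p = 0.906). Without WT clone2 experiment 3, where Tgfb3 was highest in that line, the difference from WT clone2 was 0.94 (edgeR adjusted p = 0.017). With the block, the difference of the KO-labelled line from WT clone2 passed (log2 0.67, edgeR adjusted p = 0.00427). So did the difference of WT clone2 from WT clone1 (log2 -0.62, edgeR adjusted p = 0.00601). Exons of Tgfb3 share 179 bases with the antisense gene Ttll5 (mean 37.9 CPM). The strand setting of the counting is not given, so reads of the overlap cannot be told apart.

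**Figure D1:**
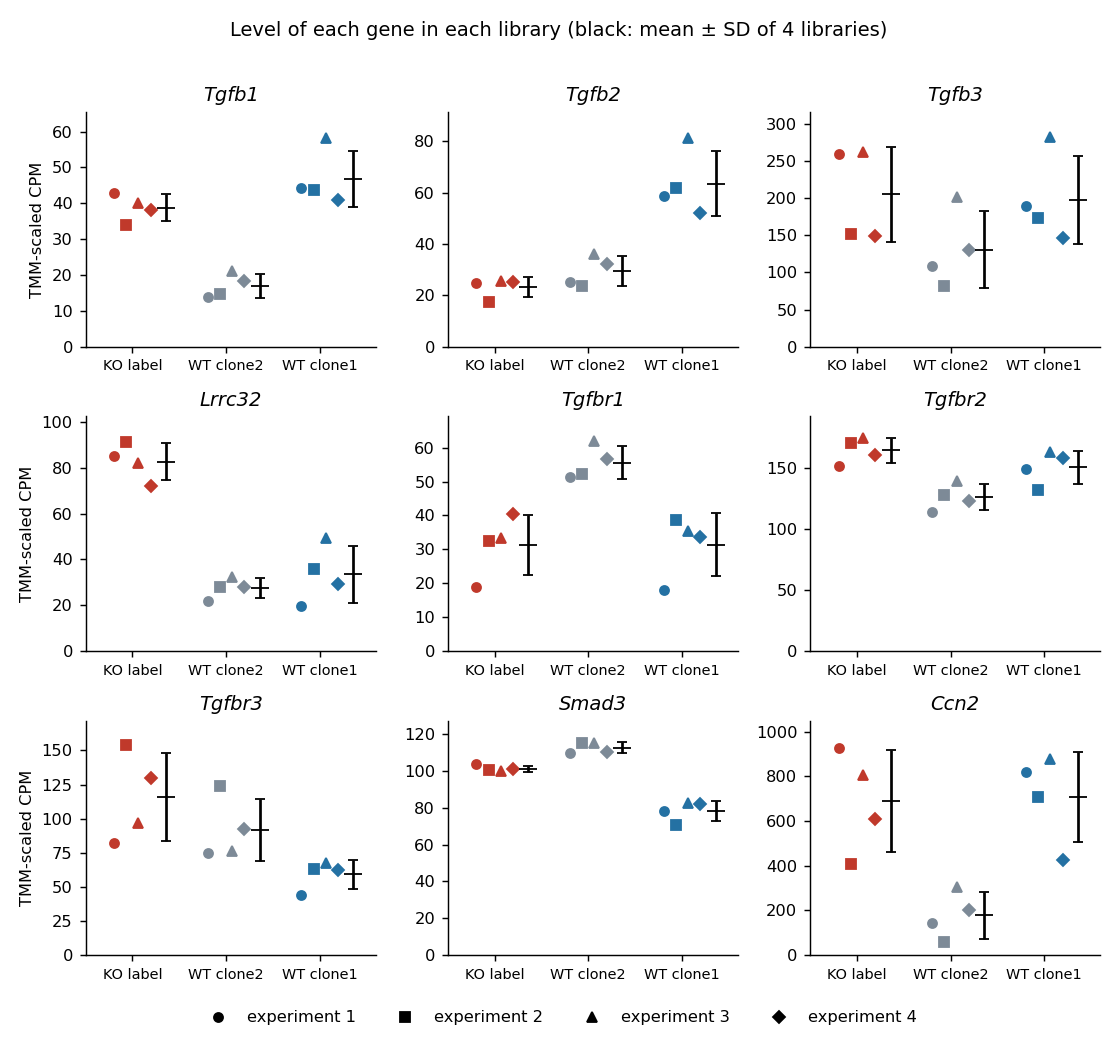
TMM-scaled CPM (vertical axes, linear from 0) of the 9 genes in every library, with KO-labelled libraries on the left, WT clone2 in the middle and WT clone1 on the right. Marker shapes give the experiment number and the black bars the mean ± SD of 4 libraries. Lrrc32 is the gene whose 4 KO-labelled libraries, at 72.0 to 91.3 CPM, all lie above the 8 WT libraries, at 19.7 to 49.2 CPM.

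The make-up of the ligand transcripts was compared as shares of the summed CPM per kb of exon, a description without a test. Tgfb2 made up 6.37 to 10.1% of the sum in KO-labelled libraries, 11.9 to 17.1% in WT clone2 and 16.6 to 19.2% in WT clone1. The KO-labelled range lay below both WT ranges, and with lengths of canonical transcripts it still did, at 5.47 to 8.34% against 10.7 to 14.8% in WT clone2 and 14.2 to 16.2% in WT clone1. A share also depends on the other ligands. Per kb of exon, the ligand sum was 38.5 to 62.3 CPM in KO-labelled libraries and 22.3 to 48.6 CPM in WT clone2. The Tgfb2 level itself overlapped between these lines and did not pass (edgeR adjusted p = 0.141). Tgfb3 took 71.1 to 80.8% in KO-labelled libraries, 69.9 to 79.5% in WT clone2 and 63.0 to 68.8% in WT clone1. Tgfb1 took 12.7 to 18.8% in KO-labelled libraries, 8.59 to 13% in WT clone2 and 14.6 to 18.2% in WT clone1. With canonical lengths the Tgfb1 shares were higher, at 21 to 29.9% in KO-labelled libraries, 14.7 to 21.7% in WT clone2 and 24 to 29.1% in WT clone1. The Tgfb3 shares were then 61.8 to 73.3% in KO-labelled libraries, 63.5 to 74.6% in WT clone2 and 55.2 to 61.8% in WT clone1.

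**Figure D2:**
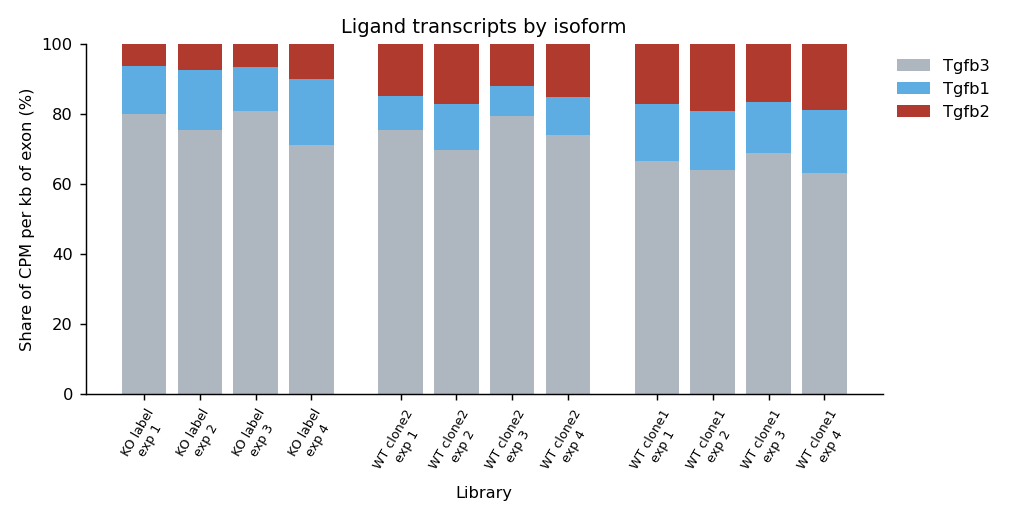
Share of each ligand gene in the summed CPM per kb of exon of Tgfb1, Tgfb2 and Tgfb3 (vertical axis, %), 1 bar per library, KO-labelled libraries first, then WT clone2 and WT clone1. Tgfb3 fills most of every bar, and the Tgfb2 segment spans 6.37 to 10.1% in KO-labelled libraries, under the 11.9 to 19.2% of the WT libraries. Each share also depends on the levels of the other ligand genes.

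Lrrc32 (chromosome 7, 98138490 to 98151388, plus strand) encodes GARP, a membrane protein that holds latent TGF-beta on the cell surface and is best known from regulatory T cells and platelets. It was counted at 85.2, 91.3, 82.4 and 72.0 CPM in KO-labelled libraries, at 21.7, 28, 32.4 and 27.9 CPM in WT clone2 and at 19.7, 35.9, 49.2 and 29.2 CPM in WT clone1. Every KO-labelled library was above all 8 WT libraries, and the WT lines overlapped. Lrrc32 rose by 1.44 ± 0.20 (log2) relative to both WT lines pooled, a 2.71-fold change (edgeR adjusted p = 0.000257). The change was 3.01-fold relative to WT clone2 (log2 1.59 ± 0.22, edgeR adjusted p = 6.9e-05) and 2.47-fold relative to WT clone1 (log2 1.30 ± 0.22, edgeR adjusted p = 0.000372). These comparisons share the 4 KO-labelled libraries.

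The pooled Lrrc32 call was kept on leaving out each library in turn, with edgeR adjusted p from 3.6e-05 to 0.00162, and without both experiment 1 libraries (log2 1.34, edgeR adjusted p = 0.00144). It was not kept when the line was treated as a random block, a fit in which 1 KO-labelled line faces 2 WT lines (limma-voom adjusted p = 0.0927). Of 4 regulatory T cell markers, Foxp3 was the 1 in the table, at 0.287 to 1.01 CPM in KO-labelled libraries, 0.774 to 1.35 CPM in WT clone2 and 0.812 to 1.95 CPM in WT clone1. Of 3 platelet markers, Itga2b was the 1 in the table, at 2.37 to 3.54 CPM in KO-labelled libraries, 3.87 to 5.59 CPM in WT clone2 and 3.67 to 4.58 CPM in WT clone1. Neither marker was high where Lrrc32 was high. Lrrc32 CPM divided by Tgfb2 CPM was 3.45, 5.20, 3.23 and 2.85 in KO-labelled libraries, 0.858, 1.17, 0.895 and 0.867 in WT clone2 and 0.335, 0.579, 0.605 and 0.561 in WT clone1, 3 ranges that did not overlap. These are the 2 members that passed the pooled test, in opposite directions. A higher ratio in KO-labelled libraries follows from that and is no separate result.

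The receptor genes did not share 1 pattern, and none passed the pooled test. Tgfbr1 (chromosome 4, 47353134 to 47414931, plus strand), which encodes the type I receptor ALK5, was at 18.9, 32.4, 33.5 and 40.3 CPM in KO-labelled libraries, at 51.4, 52.3, 61.9 and 56.6 CPM in WT clone2 and at 17.9, 38.8, 35.3 and 33.7 CPM in WT clone1. WT clone2 was high in all 4 libraries and the other lines overlapped. Tgfbr1 fell by 0.83 ± 0.23 (log2) relative to WT clone2 (edgeR adjusted p = 0.0125). Relative to WT clone1 the log2 fold change was -0.01 ± 0.23 with a 95% interval of -0.46 to 0.45 (edgeR adjusted p = 0.988). The lowest library of both those lines was experiment 1, and without this pair the difference from WT clone2 was -0.67 (edgeR adjusted p = 0.000159).

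Tgfbr2 (chromosome 9, 115913361 to 116004800, minus strand), which encodes the type II receptor, varied least between lines. Its level was 151.5, 171, 175 and 160.4 CPM in KO-labelled libraries, 114, 128, 140.0 and 123 CPM in WT clone2 and 149, 132, 163 and 158 CPM in WT clone1. The KO-labelled libraries were all above WT clone2 and overlapped with WT clone1. Tgfbr2 rose by 0.38 ± 0.09 (log2) relative to WT clone2 (edgeR adjusted p = 0.0045), while relative to WT clone1 the log2 fold change was 0.13 ± 0.09 (edgeR adjusted p = 0.302). Tgfbr2 CPM divided by Tgfbr1 CPM was 8.03, 5.27, 5.23 and 3.98 in KO-labelled libraries, 2.21, 2.44, 2.26 and 2.17 in WT clone2 and 8.31, 3.41, 4.62 and 4.69 in WT clone1. The 4 WT clone2 ratios were the lowest of the 12, and the highest ratios of the other lines came from the experiment 1 libraries. The low WT clone2 ratios follow from the higher Tgfbr1 and lower Tgfbr2 of that line and are no separate result.

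Tgfbr3 (chromosome 5, 107249402 to 107437623, minus strand) encodes betaglycan, a co-receptor that presents ligand to the type II receptor. It was at 82.3, 154, 96.6 and 129.8 CPM in KO-labelled libraries, at 74.8, 124, 76.4 and 92.4 CPM in WT clone2 and at 43.9, 62.9, 67.6 and 62.4 CPM in WT clone1. WT clone1 was the low line, under every library of the other lines, which overlapped. Tgfbr3 rose by 0.96 ± 0.21 (log2) relative to WT clone1 (edgeR adjusted p = 0.00292), and relative to WT clone2 the log2 fold change was 0.33 ± 0.21 (edgeR adjusted p = 0.236). The pooled log2 fold change was 0.61 ± 0.24 (edgeR adjusted p = 0.0918) and became 0.75 without WT clone2 experiment 2, its highest library in that line (edgeR adjusted p = 0.023).

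Smad3 (chromosome 9, 63554049 to 63665476, minus strand) encodes the receptor-phosphorylated transcription factor that carries the signal to DNA. It was at 103.5, 100.2, 100.1 and 101 CPM in KO-labelled libraries, at 109.5, 115, 115 and 110.0 CPM in WT clone2 and at 78.3, 70.4, 82.3 and 81.8 CPM in WT clone1. The 3 lines did not overlap: WT clone2 was highest, the KO-labelled line lay between and WT clone1 was lowest. Smad3 rose by 0.37 ± 0.07 (log2) relative to WT clone1 (edgeR adjusted p = 0.00105), and its log2 fold change relative to WT clone2 was -0.15 ± 0.07 (edgeR adjusted p = 0.106). The pooled log2 fold change was 0.09 ± 0.14 (edgeR adjusted p = 0.718).

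Ccn2 (chromosome 10, 24471333 to 24474900, plus strand) encodes connective tissue growth factor, a matrix-associated protein induced by TGF-beta and by the YAP and TEAD factors. It was at 928, 409.7, 806 and 611 CPM in KO-labelled libraries, at 145, 59.97, 306 and 200.1 CPM in WT clone2 and at 817, 707, 877 and 427 CPM in WT clone1. All 4 WT clone2 libraries were under every other library, and the KO-labelled and WT clone1 libraries overlapped. Ccn2 rose 3.87-fold in the KO-labelled line relative to WT clone2 (log2 1.95 ± 0.41, edgeR adjusted p = 0.00187). Relative to WT clone1 the log2 fold change was -0.04 ± 0.39, with a 95% interval of -0.81 to 0.73 (edgeR adjusted p = 0.953). Ccn2 shares 1164 exon bases with the antisense RNA gene Gm15270, whose reads cannot be told apart from those of Ccn2 without a strand setting.

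Per kb of exon, the order of the line means was led by Ccn2 in each line, at 216 CPM per kb in the KO-labelled line, 55.8 in WT clone2 and 222 in WT clone1. Tgfb3 followed in each line, at 39.4 CPM per kb in the KO-labelled line, 25.0 in WT clone2 and 37.9 in WT clone1. Tgfbr2, Smad3, Lrrc32 and Tgfbr3 lay between 16.9 and 18.7 CPM per kb in the KO-labelled line, neighbours in that order whose means differed by less than the SD of Tgfbr3 across its 4 libraries (4.71 CPM per kb). Lrrc32 was at 17.4 CPM per kb in the KO-labelled line, 5.80 in WT clone2 and 7.07 in WT clone1. The lowest of the 9 was Tgfb2 in the KO-labelled line, at 3.72 CPM per kb, Tgfb1 in WT clone2, at 3.35, and Tgfbr1 in WT clone1, at 4.74. The level of Tgfb1 depended on the length used, 6.74 CPM per kb of all exons against 15.4 CPM per kb of its canonical transcript over 12 libraries. With canonical lengths Tgfb1 was not the lowest in WT clone2, at 7.69 CPM per kb. Tgfb2 was lowest there, at 5.63.

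Counted over the set, 2 of 9 genes passed the pooled test, where 18.8% of all genes tested did. They were Lrrc32 among the genes that rose (8.47% of all genes) and Tgfb2 among those that fell (10.3%). Relative to WT clone2, 5 of 9 passed where 38.4% of all genes did: Tgfb1, Lrrc32, Tgfbr2 and Ccn2 rose (19.2% of all genes) and Tgfbr1 fell (19.2%). Relative to WT clone1, 4 of 9 passed where 36.1% of all genes did: Lrrc32, Tgfbr3 and Smad3 rose (16.8%) and Tgfb2 fell (19.3%). Libraries of the groups did not overlap for 1 gene in the pooled comparison (13.9% of all genes), for 6 relative to WT clone2 (38.1%) and for 4 relative to WT clone1 (33.3%). Some of these counts were above the shares over all genes, such as the 6 of 9 relative to WT clone2. With 9 genes the counts are small, and their difference from the shares was not tested. Lrrc32 was the member that passed relative to each WT line in the same direction, as 15% of all genes did.

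The WT lines also differed from each other in these genes. In WT clone2 relative to WT clone1, 7 of 9 genes passed, where 42.6% of all genes did, and libraries did not overlap for 6 (40.8%). The 4 that fell stand beside 21.9% of all genes and the 3 that rose beside 20.7%. Tgfb1 (log2 -1.46 ± 0.15, edgeR adjusted p = 4.1e-06), Tgfb2 (-1.11 ± 0.17, edgeR adjusted p = 0.000149), Tgfbr2 (-0.26 ± 0.09, edgeR adjusted p = 0.0362) and Ccn2 (-1.99 ± 0.41, edgeR adjusted p = 0.00142) fell. Tgfbr1 (log2 0.82 ± 0.23, edgeR adjusted p = 0.0113), Tgfbr3 (0.63 ± 0.21, edgeR adjusted p = 0.0271) and Smad3 (0.52 ± 0.07, edgeR adjusted p = 5.1e-05) rose. Tgfb3 and Lrrc32 did not pass, at log2 fold changes of -0.60 ± 0.29 (edgeR adjusted p = 0.111) and -0.29 ± 0.22 (edgeR adjusted p = 0.313).

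Experiment numbers were taken to pair the 2 WT lines, by a limit of 0.1 on correlations. With the number as a block over all 12 libraries, KO-labelled ones included, Tgfb3 was lower in WT clone2 as well (log2 -0.62, edgeR adjusted p = 0.00601). Under that block 8 of 9 genes passed, where 7259 of all 14392 genes did. Without the block, the Tgfbr2 call was lost on leaving out WT clone2 experiment 1 or 4 or WT clone1 experiment 3 or 4 (edgeR adjusted p 0.0614 to 0.112). The Tgfbr3 call was lost on leaving out WT clone2 experiment 2 or 4 or WT clone1 experiment 1 (edgeR adjusted p 0.0509 to 0.101). Lrrc32 was lower in WT clone2 without WT clone1 experiment 1 (log2 -0.48, edgeR adjusted p = 0.0356), and Tgfb3 without WT clone2 experiment 3 (log2 -0.89, edgeR adjusted p = 0.0202).

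Markers of other cell types differed between the WT lines as well. Summed chondrocyte markers (3 of 3 in the table) were at 18.7 to 26.3 CPM in WT clone2 and 103 to 164 CPM in WT clone1. Summed epithelial markers (5 of 7) were at 0.514 to 1.71 CPM in WT clone2 and 26.7 to 60.6 CPM in WT clone1, and summed endothelial markers (3 of 6) at 0.343 to 0.621 CPM in WT clone2 and 5.81 to 15.8 CPM in WT clone1. The epithelial sum rested on Krt19, at a mean of 0.332 CPM in WT clone2 and 43.4 CPM in WT clone1, while Cdh1, Krt8, Krt14 and Krt18 averaged under 1 CPM in every line. The endothelial sum was mostly Kdr, at a mean of 0.235 CPM in WT clone2 and 9.68 CPM in WT clone1. In KO-labelled libraries the sums were 23.2 to 28.6 CPM for chondrocyte, 5.80 to 12.1 CPM for epithelial and 0.516 to 2.19 CPM for endothelial markers, with Cdh1 and Krt14 at 0. WT clone1 had the highest of these sums and was the line in which Tgfb2 was high and Tgfbr3 and Smad3 were low. The part of these markers in those differences was not tested. Summed smooth muscle markers (3 of 4) were nearly all Acta2 and overlapped, at 2724 to 5225 CPM in KO-labelled libraries, 2906 to 6348 CPM in WT clone2 and 2860 to 3996 CPM in WT clone1. Myh11 alone did not overlap, at 0.296 to 0.808 CPM in KO-labelled libraries, 5.54 to 16.8 CPM in WT clone2 and 2.39 to 5.05 CPM in WT clone1. Cnn1 was at 75.8 to 170 CPM in KO-labelled libraries, 198 to 401 CPM in WT clone2 and 107 to 158 CPM in WT clone1. Macrophage and leukocyte markers (2 of 7) summed to 2.03 to 2.6 CPM in KO-labelled libraries, 2.28 to 3.22 CPM in WT clone2 and 3.23 to 4.31 CPM in WT clone1, and of 3 skeletal muscle markers 0 were in the table.

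**Figure D3:**
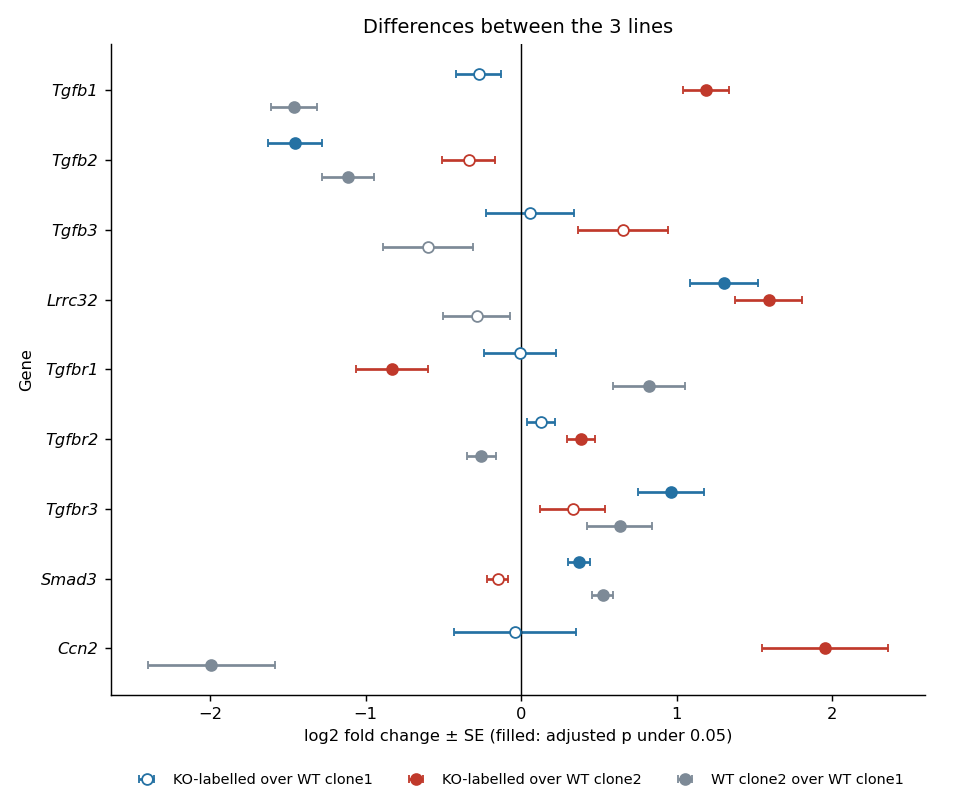
Log2 fold change ± SE (horizontal axis) of the 9 genes in the KO-labelled line over WT clone1 (blue), in the KO-labelled line over WT clone2 (red) and in WT clone2 over WT clone1 (grey), with filled points for adjusted p under 0.05. The blue and red points are both filled and on the same side of 0 for Lrrc32, at 1.30 and 1.59, and grey points are filled for 7 of the 9 genes.

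The genes also differed in how steady they were inside a line. The SD of log2 CPM within lines was 0.0657 for Smad3 and 0.118 for Tgfbr2, against a median of 0.211 over all 14392 genes. It was 0.703 for Ccn2, 0.474 for Tgfb3 and 0.405 for Tgfbr1. Ccn2 was thus at the 98th percentile of within-line spread and Smad3 at the 1.41st. The range of the 3 line means was 2.17 for Ccn2, 1.59 for Lrrc32, 1.46 for Tgfb1 and 1.44 for Tgfb2, against 0.384 for Tgfbr2 and a median of 0.482 over all genes. For Ccn2 the widest deviations from a line mean were in WT clone2, at -1.34 in experiment 2 and 1.01 in experiment 3.

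Several deviations fell in the same experiment. In both WT lines experiment 3 held the highest level of Tgfb1, Tgfb2, Tgfb3, Lrrc32, Tgfbr2, Smad3 and Ccn2. The share of all genes with this pattern was not computed. For Tgfb3 its deviation from the line mean was 0.71 in WT clone2 and 0.56 in WT clone1, and for Ccn2 it was 1.01 in WT clone2 and 0.36 in WT clone1. In the KO-labelled line Ccn2 was highest in experiment 1, at a deviation of 0.50. Tgfbr1 was lowest in experiment 1 of every line, at deviations of -0.67 in the KO-labelled line, -0.11 in WT clone2 and -0.75 in WT clone1, and Tgfbr3 was lowest there too, at -0.45, -0.27 and -0.41 in the same order of lines. What the experiment numbers stand for is not given in the labels.

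**Figure D4:**
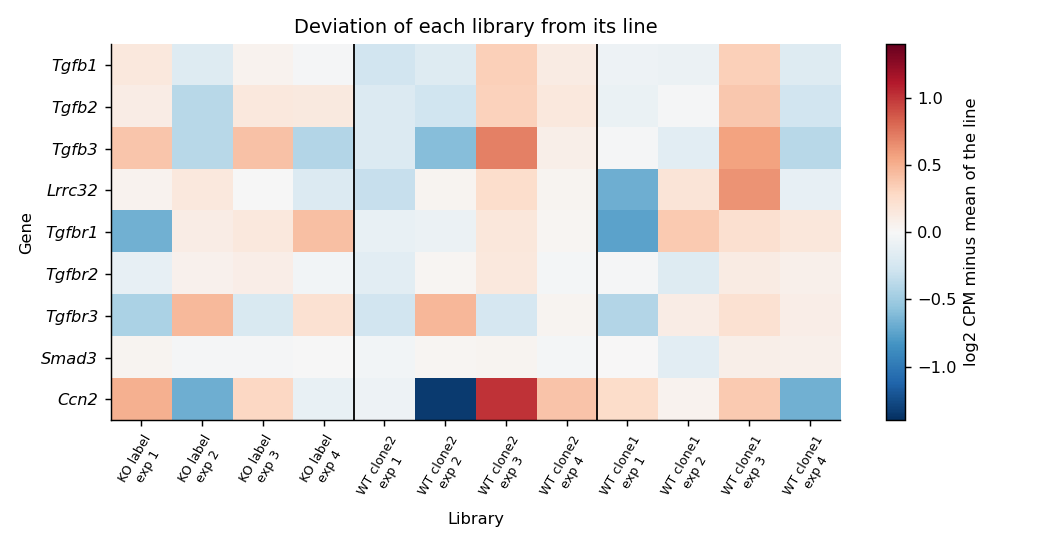
Log2 CPM of each gene (rows) in each library (columns) minus the mean of its line, red above and blue below, with black lines between the KO-labelled line, WT clone2 and WT clone1. Tgfbr1 and Tgfbr3 are blue in experiment 1 of the 3 lines. Every gene other than Tgfbr3 is above its line mean in experiment 3 of both WT lines, Smad3 only slightly (0.036 in WT clone2 and 0.077 in WT clone1).

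Genes most alike in pattern were named for Tgfb2 and Lrrc32, by Pearson correlation of log2 CPM over the 12 libraries among 10716 genes. The 12 values fall into 3 lines of 4 libraries each and give a description only. For Tgfb2 they were Papss2 (r = 0.979), a synthase of the sulfate donor of cells, Epha4 (r = 0.971), an ephrin receptor, and Tmtc1 (r = 0.971). Epha4 averaged 27.5 CPM in the KO-labelled line, 36.6 CPM in WT clone2 and 87.7 CPM in WT clone1. For Lrrc32 they were Tfap2a (r = 0.95), a transcription factor gene, Dnaaf9 (r = 0.943) and Lgr4 (r = 0.943), a receptor for R-spondins. Tfap2a averaged 26.0 CPM in the KO-labelled line, 3.65 CPM in WT clone2 and 5.00 CPM in WT clone1.

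Outside the 9 genes, 100 other genes of the pathway were tested in 5 lists, and 7 were higher and 17 lower in the KO-labelled line relative to the pooled WT libraries. That is 24% of the lists, where 18.8% of all genes passed. Relative to WT clone2 alone 54% passed (38.4% of all genes), relative to WT clone1 alone 42% (36.1%), and in WT clone2 relative to WT clone1 55% (42.6%). Genes are named below where they passed the pooled test and both single-line tests in the same direction, up to 4 per list and direction with the smallest adjusted p. In all 17 fell within that cap, and 14 of the 17 did not pass limma-voom with a random block for line, the exceptions being Eng, Smad6 and Id1.

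Of 17 genes of ligand latency and activation, 2 were higher and 4 lower, with a median log2 fold change of -0.17 against -0.03 over all genes. Mmp14, a membrane protease able to release latent ligand, averaged 491 ± 44.1 CPM in KO-labelled libraries, 321 ± 62.2 CPM in WT clone2 and 241 ± 11.0 CPM in WT clone1 (SD, n = 4 each), and it rose by 0.80 ± 0.14 (log2) (edgeR adjusted p = 0.00178). The matrix protein gene Thbs2 rose by 1.36 ± 0.36 (edgeR adjusted p = 0.0205), a call lost without KO experiment 3 (edgeR adjusted p = 0.0692), KO experiment 4 (0.0668) or both experiment 1 libraries (0.0541). Its call relative to WT clone1 was lost without KO experiment 3 or 4, WT clone1 experiment 1 or 4, or both experiment 1 libraries (edgeR adjusted p 0.0525 to 0.0901). The integrin subunit gene Itgb3 fell by 1.24 ± 0.28 (edgeR adjusted p = 0.00775) and the microfibril gene Fbn2 fell by 1.70 ± 0.40 (edgeR adjusted p = 0.01). The secreted protease gene Mmp9 fell by 2.59 ± 0.44 (edgeR adjusted p = 0.00134) at low levels. Its means were 0.55 CPM in KO-labelled libraries, 2.4 CPM in WT clone2 and 4.2 CPM in WT clone1.

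Of 11 receptors, co-receptors and decoys, 1 was higher and 3 were lower, with a median of -0.14. Eng, which encodes endoglin, a co-receptor related to betaglycan, was at 3.79, 1.77, 2.82 and 2.19 CPM in KO-labelled libraries, at 17.6, 15.7, 28.7 and 26.9 CPM in WT clone2 and at 28.7, 22.1, 23.9 and 21.7 CPM in WT clone1. It fell by 3.13 ± 0.25 (log2) (edgeR adjusted p = 3.9e-06), with every KO-labelled library under the 8 WT libraries. Dcn, which encodes the ligand-binding proteoglycan decorin, fell by 6.55 ± 0.87 (edgeR adjusted p = 0.000224), and Vasn, which encodes the ligand-binding protein vasorin, fell by 0.75 ± 0.15 (edgeR adjusted p = 0.00368). Acvr1, a type I receptor gene of the wider family, rose by 0.49 ± 0.10 (edgeR adjusted p = 0.00378).

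Among 11 signal transducers 0 were higher and 1 was lower, and among 14 inhibitors and repressors 0 were higher and 2 lower, with medians of -0.13 and 0.04. The transducer was Dab2, an adaptor, which fell by 0.50 ± 0.12 (edgeR adjusted p = 0.0133). Its call relative to WT clone1 was lost on leaving out KO experiment 1, 2 or 3, WT clone1 experiment 3 or both experiment 1 libraries (edgeR adjusted p 0.0531 to 0.077). Smad6, an inhibitory SMAD known mainly from the BMP branch, averaged 12.9 ± 1.74 CPM in KO-labelled libraries, 60.1 ± 11.6 CPM in WT clone2 and 40.3 ± 9.38 CPM in WT clone1 (SD, n = 4 each), and it fell by 1.95 ± 0.23 (edgeR adjusted p = 8.3e-05). Smad2 and Smad4, the partners of SMAD3, did not pass, at log2 fold changes of -0.19 ± 0.06 (edgeR adjusted p = 0.0585) and 0.00 ± 0.09 (edgeR adjusted p = 0.997).

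Of 47 target genes, 4 were higher and 7 lower, where 8.47% of all genes were higher and 10.3% lower, with a median of -0.16. Ccn4, a family member of Ccn2, rose by 1.39 ± 0.22 (edgeR adjusted p = 0.000886) and the cadherin gene Cdh2 by 0.58 ± 0.12 (edgeR adjusted p = 0.00594). Id1 and Id3, which encode inhibitors of helix-loop-helix factors and respond to BMP as well, fell by 2.97 ± 0.28 (edgeR adjusted p = 1.6e-05) and fell by 1.22 ± 0.16 (edgeR adjusted p = 0.000198). Id1 was at 11.8, 7.51, 7.79 and 13.7 CPM in KO-labelled libraries, at 81.1, 52.9, 94.6 and 50.2 CPM in WT clone2 and at 97.1, 89.8, 112 and 61.0 CPM in WT clone1. The adhesion protein gene Tgfbi fell by 1.505 ± 0.20 (edgeR adjusted p = 0.000257) and the transcription factor gene Zeb1 fell by 0.99 ± 0.16 (edgeR adjusted p = 0.000928). Eln and Timp3 also passed the pooled and both single-line tests, beyond the cap of 4. Eln fell by 4.62 ± 0.79 (edgeR adjusted p = 0.00142) at a mean of 0.603 CPM over the libraries. Timp3 fell by 0.86 ± 0.27 (edgeR adjusted p = 0.0414).

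The target Ankrd1, which encodes an ankyrin repeat protein, had its low line in WT clone2, as Ccn2 did, and was picked after its values were seen. It rose by 7.02 ± 0.44 (log2) in the KO-labelled line relative to WT clone2 (edgeR adjusted p = 6.9e-08) and fell by 1.15 ± 0.27 relative to WT clone1 (edgeR adjusted p = 0.005). Its pooled log2 fold change was -0.15 ± 1.37 (edgeR adjusted p = 0.952). The target list did not share this low line. Of its 47 genes, 10 were higher and 13 lower in WT clone2 relative to WT clone1.

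**Figure D5:**
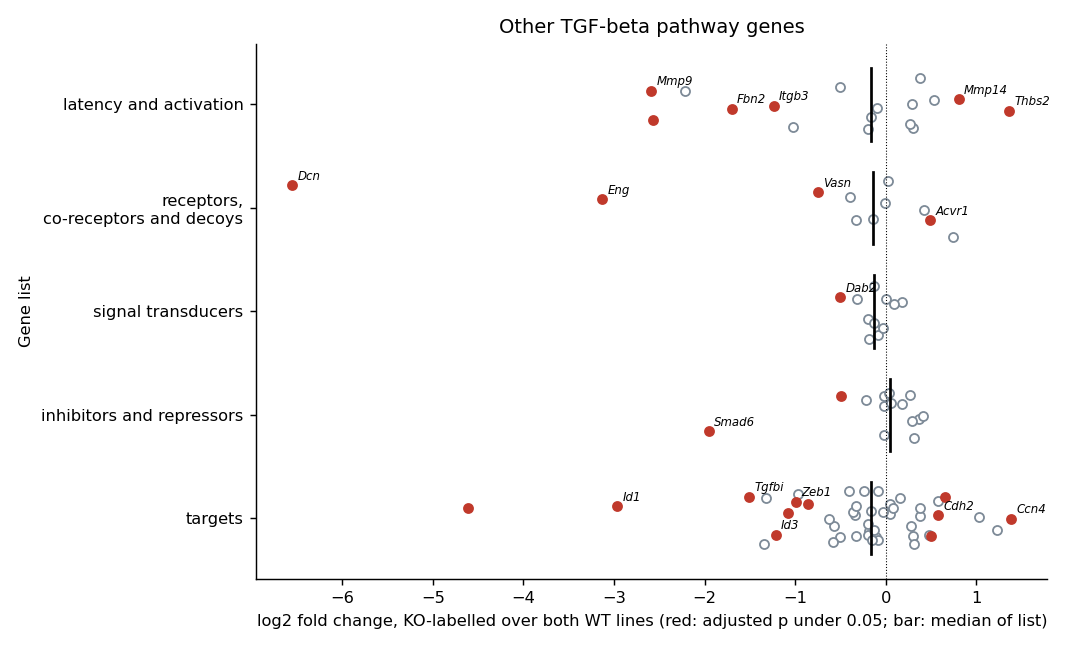
Log2 fold change in the KO-labelled line over both WT lines (horizontal axis) of 100 other TGF-beta pathway genes in 5 lists (rows), red where the adjusted p is under 0.05, with a black bar at the median of each list and names at the 17 genes selected by rule. Medians lie between -0.17 and 0.04. The points farthest to the left are Dcn at -6.55, Eln at -4.62 (not labelled), Eng at -3.13 and Id1 at -2.97.

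The authors' deposited table gives its own comparison, whose tool and direction are not stated, and its signs match KO over WT. It lists Lrrc32 at a log2 fold change of 1.48 (adjusted p = 6.9e-12), Tgfb2 at -0.99 (adjusted p = 0.00249) and Tgfbr3 at 0.60 (adjusted p = 0.0122) in the authors' deposited table. The other 6 genes have adjusted p from 0.0847 for Tgfbr1 to 0.677 for Smad3 in the authors' deposited table.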

How the data were processed

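RNA of 12 libraries of E6-immortalised mouse embryonic fibroblasts was grouped into 3 lines by the sample titles. Per the labels' protocols, reads were paired-end at 150 bp. Per the design text and the submitters' processing notes, the authors checked reads with FastQC and aligned and counted them on GRCm39 with STAR 2.5.4a against a GENCODE annotation. Neither the GENCODE release nor the strandedness of counting is given in the sources used here. Per the file headers, the deposited values are raw counts for each gene and library, beside the authors' own log2 fold change with its error and the authors' adjusted p-value. Of its 15207 entries, 51 name no gene, took 2.04 to 5.25% of counts and entered neither library sizes nor tests.

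The test on these counts was that of edgeR 4.0.16 under R 4.3.3 (TMM, filterByExpr, quasi-likelihood F tests, two-sided, Benjamini-Hochberg over 14392 genes, threshold 0.05). The KO-labelled libraries (n = 4) were set against both WT lines pooled (n = 8), and single lines were compared in a fit with 3 line means. SE was approximated as the absolute log2 fold change over the root of F, and 95% intervals are 1.96 SE to either side. Deviations and correlations used log2 CPM with a prior count of 2. Lengths, coordinates (counted from 1) and upstream sequences came from GENCODE vM39 and GRCm39, where 15153 of 15156 genes were found. Upstream sequences of the other 6 genes are not reported here. The scripts were tested on simulated data. Alternatives were no filter, DESeq2 1.42.0, size factors of DESeq2 in edgeR, a block for experiment number, limma-voom (limma 3.58.1) with a random block for line, 1 mean per line, leaving out each library and leaving out the experiment 1 libraries of the KO-labelled line and WT clone1. Other steps used Python 3.11.15.

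Same-numbered libraries deviated together in WT clone2 and WT clone1, with 4 of 4 correlations over 0.1 (0.109 to 0.297), so the numbers were taken to pair those lines. They did so in 3 of 4 for the KO-labelled line with WT clone1 (0.0996 to 0.75) and in 3 of 4 with WT clone2 (0.0421 to 0.312), which were not taken as paired. The limit of 0.1 decided this narrowly. In WT clone1 3 of 4 libraries correlated best with their own number in WT clone2, and 2 of 4 the other way. The same counts, 3 and 2, held for the KO-labelled line with WT clone1. Within lines, no pair of libraries matched within sampling noise (chi-square over its degrees of freedom 10 to 64.5).

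The 9 genes, the 5 pathway lists and the marker lists were chosen with earlier results of these data known. Named were Cdkn1b, the 9 genes, list members passing the pooled and both single-line tests in 1 direction (up to 4 per list and direction), and the 3 genes most alike in pattern (mean CPM at least 5) for Tgfb2 and Lrrc32. Eln and Timp3, which met the rule for list members beyond the cap, were added. Smad2, Smad4 and Ankrd1 were chosen after their values were seen.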

Additional observations from a re-analysis of the deposited data

Results flagged for a closer look

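Of 27 sets of 4 libraries (9 genes in 3 lines), 1 held a library outside Dixon's 95% limit, where chance gives about 1 in 20. Tgfb2 was at 17.6 CPM in experiment 2 of the KO-labelled line, against 24.7, 25.5 and 25.2 CPM in the other 3 libraries. Without this library the pooled log2 fold change of Tgfb2 was -0.88 (edgeR adjusted p = 0.14).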

How the results depend on the processing

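Lrrc32 passed the pooled test under every alternative other than limma-voom with a random block for line, and its comparisons with each WT line passed under every alternative run. Tgfb2 kept its direction throughout, and its pooled call was lost without the filter (edgeR adjusted p = 0.0521), with the replicate block (0.0857) and in the line-block fit (limma-voom adjusted p = 0.518). The number of the 9 genes passing the pooled test, 2 as reported, was 1 without the filter, 1 with the replicate block, 1 without both experiment 1 libraries, 6 with 1 mean per line and 0 with limma-voom, and 1 to 3 on leaving out each library (3 without WT clone2 experiment 2). Over all genes the pooled count of 2700 became 4871 with 1 mean per line and 230 with limma-voom, whose spread includes the difference between lines. With 1 mean per line, Tgfb1 (0.46), Tgfbr2 (0.26), Tgfbr3 (0.65) and Ccn2 (0.96) passed as well. Relative to WT clone2 the replicate block gave 8 genes in place of 5, adding Tgfb2 (edgeR adjusted p = 0.049), Tgfb3 (0.00427) and Tgfbr3 (0.0434). The KO-labelled line was not treated as paired with either WT line, because 1 of 4 same-numbered correlations was under 0.1 in each case, so whether that block is the better fit was not settled: 3 of 4 KO-labelled libraries correlated best with their own number in WT clone1 and 2 of 4 in WT clone2. Log2 fold changes near 0 relative to WT clone1 changed sign: Tgfbr1 to 0.00 without the filter, Tgfb3 to -0.11 without both experiment 1 libraries, and on leaving out each library Tgfbr1 spanned -0.20 to 0.17, Tgfb3 -0.08 to 0.28 and Ccn2 -0.22 to 0.15. The Tgfb1 level was 15.4 CPM per kb with the canonical length, 6.74 with all exons. The cause of these changes was not tested.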
